A study of Mus musculus with 4 samples.

Results

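Genes that lie wholly inside another gene on the opposite strand were examined, 1572 inner genes among the 50600 genes annotated in the count tables. For each gene the opposite-strand gene with the largest exon overlap, at least 50 bases, was taken from the exon positions in the tables. The gene was kept as an inner gene where its whole span lay within the span of that partner, here called the outer gene. An opposite-strand exon overlap of at least 50 bases was found for 7552 genes in all, so the inner genes are a part of these. They were held by 1456 outer genes, of which 1367 held 1 inner gene and 89 held more, up to 6.

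The counts came from 4 RNA-seq libraries of primary cells from C57BL/6NJ mice, labelled as T-helper 2 cells, the CD4 T cells known for interleukins 4, 5 and 13. The libraries form 1 group, biological replicates 1 to 4, with no second genotype, treatment or time to compare. Age is given as unknown and sex as not collected, and the samples share 1 donor identifier. The assay is called total RNA-seq, although the linked library protocol is named for poly(A) RNA, and the file headers place them at 0 hours of a time course of Th1 and Th2 cells while the labels give no time. Whether the replicates came from separate mice is not stated, so the spread and the p-values below measure only the differences between these samples, which may be technical.

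Totals ranged from 1452053 to 2351916 counted fragments per library. A limit of 3 counts was set for a value of 0, which corresponded to 1.28 to 2.07 CPM (counts scaled by the library total). It is a chosen limit, and higher levels are not excluded. This limit and the intervals below cover counting error only, because fragments without molecular identifiers are not independent molecules. Of 8 T cell markers, 8 had a count in every library, with summed counts of 502 to 1075. Of 7 T-helper 2 markers, 3 did, and Il5 and Il13 were at 0 in all libraries. Among markers of other cells, Ms4a1 and Pax5 of B cells, Adgre1 and Lyz2 of macrophages, Gzmb of cytotoxic cells, Mpo and S100a8 of granulocytes and Col1a1 of stromal cells were at 0, while the 4 macrophage markers summed to 561 to 773. All of these are counts on the strand of the gene named, and in bulk libraries fewer cells of a type and less RNA per cell cannot be told apart.

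Both strands of a stretch of DNA can be transcribed, and a transcript made from the strand opposite to a gene is called antisense. Some antisense transcripts act on the gene they overlap, by interference between polymerases, by chromatin at its promoter or by pairing with its RNA, and many have no known role. Where exons of 2 genes lie on the same bases, the strand to which a fragment is assigned alone decides which gene it is counted for. The tables were counted with a strand setting of 1, which reads the strand from the first read of a pair. The library kit, and with it the strand that its first read carries, is not given in the sources used here. With the opposite setting each fragment would be assigned to the other strand, so every direction below rests on the setting. Whether fragments assigned to a gene arose from transcripts of that gene was not tested, and the values below describe the assigned counts.

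The sequences of 3 overlaps show what the 2 strands share. Each line gives the strand of the inner gene, 5′ to 3′ on the mm10 build, read from inner-gene transcripts of GENCODE mouse release 21. Capitals mark an exon of the outer gene, here wholly coding, as its complement is read on the inner strand, and lower case marks 15 bases of the outer gene's introns on each side. 2010300F17Rik lies in Skap1, an adaptor that acts below the T cell receptor, and the stretch is chr11:96713002-96713217, minus strand. Gm20531 lies in Ptpn6, the phosphatase SHP-1, a brake on receptor signalling, and the stretch is chr6:124732285-124732509, plus strand. Gm26577 lies in Myb, a transcription factor of blood progenitors, and the stretch is chr10:21152877-21152999, plus strand.
2010300F17Rik across an exon of Skap1: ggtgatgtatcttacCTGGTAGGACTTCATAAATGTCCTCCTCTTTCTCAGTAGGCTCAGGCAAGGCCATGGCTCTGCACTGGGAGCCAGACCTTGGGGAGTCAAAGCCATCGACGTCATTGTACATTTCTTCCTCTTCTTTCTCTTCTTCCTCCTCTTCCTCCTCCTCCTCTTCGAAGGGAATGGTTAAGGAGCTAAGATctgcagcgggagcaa
Gm20531 across an exon of Ptpn6: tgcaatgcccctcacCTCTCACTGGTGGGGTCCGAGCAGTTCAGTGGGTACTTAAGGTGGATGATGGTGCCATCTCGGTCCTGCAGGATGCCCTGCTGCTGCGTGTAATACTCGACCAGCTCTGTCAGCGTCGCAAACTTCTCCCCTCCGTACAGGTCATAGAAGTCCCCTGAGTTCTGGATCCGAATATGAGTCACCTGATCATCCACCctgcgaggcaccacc
Gm26577 across an exon of Myb: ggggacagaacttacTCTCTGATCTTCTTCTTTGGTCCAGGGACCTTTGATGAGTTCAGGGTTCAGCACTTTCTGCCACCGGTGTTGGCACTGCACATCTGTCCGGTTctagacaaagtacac
In all 3 the capitals stand between AC and CT, which are AG and GT, the usual intron ends, when read on the outer strand. The same held for 189 of 199 outer exons (95%), and 0 had AG before and GT after on the inner strand. These were wholly coding exons under a length limit that lay with their flanks inside an exon of a measured inner transcript. Only the longest was taken for each pair, and 1 chromosome was left out. These stretches were taken because the annotation places an outer exon with its flanks inside 1 inner exon, so the signals restate that annotation. A fragment that does not cross a splice junction has only its strand to tell the genes apart.

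By annotated type, 606 inner genes were antisense genes, 210 were protein-coding, 147 were lincRNAs, 146 were miRNA genes, 136 were TEC genes, unclassified loci still to be tested, and 134 were processed pseudogenes. By both types, 1057 pairs had an inner gene of another type in a protein-coding outer gene, and 131 pairs joined 2 protein-coding genes. A coding gene lay within a gene of another type in 79 pairs, 291 pairs held no coding gene, and 14 had a gene with no matched type. Inner genes had a median of 809.5 exon bases (range 53 to 17923), and the outer genes of these pairs had 5001. The overlap had a median of 244 bases and covered a median of 39.4% of the inner exons. Outer exons covered 439 inner genes in full. In 6 pairs both genes had the same span, so each of these 12 genes is inner to the other.

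The 4 gene models drawn below show how differently the members sit. Gm20531 lies within Ptpn6 and covers 1 of its coding exons, Gm20402 lies at the first exon of Foxo1, Txnip lies within the long noncoding gene Gm15441, and Avpr2 overlaps the last exon of Arhgap4.

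**Figure D1:**
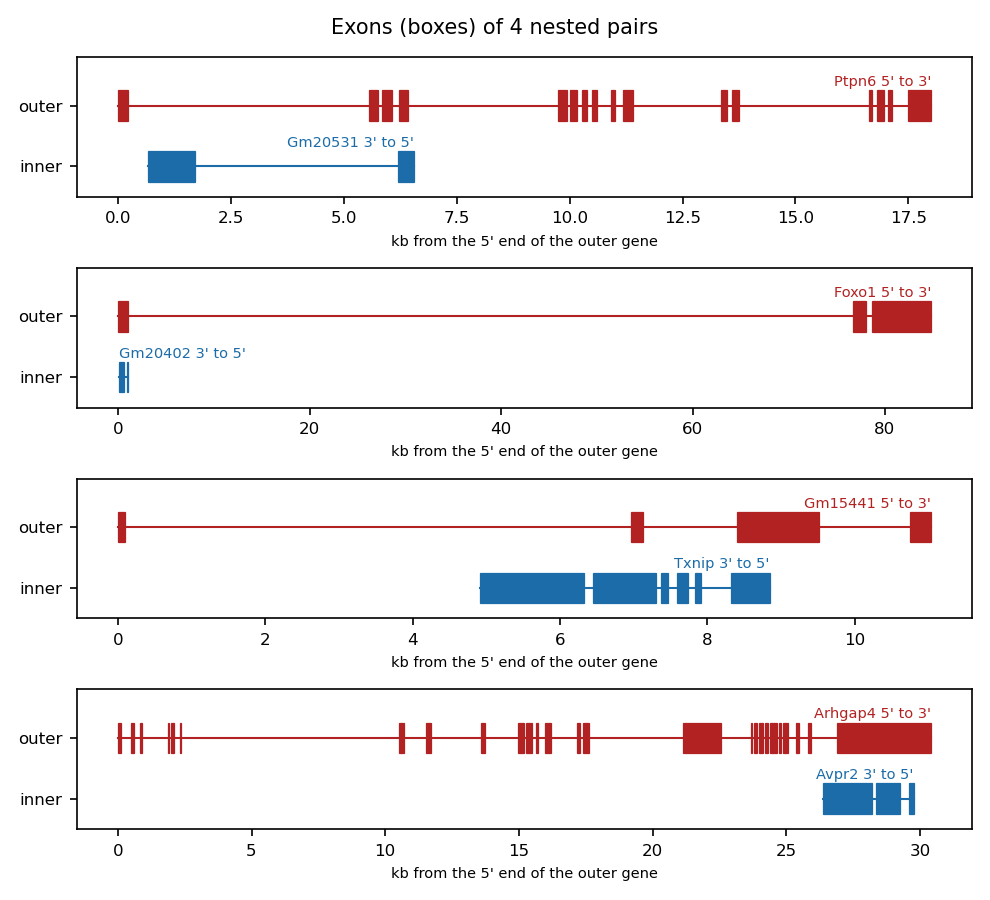
Exons of 4 nested pairs as boxes along the distance in kb from the 5′ end of the outer gene, with the outer gene in red and the inner gene, on the opposite strand, in blue. The inner genes differ in where they lie in the outer gene and in how much of their exon length is covered, from 14.2% of Gm20531 to 98.1% of Gm20402.

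Inner genes took 21.6%, 18.3%, 21.5% and 20% of the counts of replicates 1 to 4 (20.3 ± 1.55, SD, n = 4). Outer genes took 16%, 24.8%, 12.9% and 20.9%, of which a single ribosomal RNA locus, CT010467.1, made up a large part. Without it the outer genes took 9.07%, 7.95%, 9.42% and 8.29%, less than the inner genes in every library. A count in every library was found for 729 of the 1572 inner genes and 712 of the 1456 outer genes, against 20.3% of all annotated genes.

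Inner genes more often had a count than genes of the same type with no opposite-strand exon overlap. Per library 52.6 ± 1.92% of 1560 inner genes had at least 1 count, against 17.6 ± 2.30% of 41324 genes without an overlap, weighted to the same types (SD, n = 4). The difference was 35.0 ± 0.891 percentage points and was positive in 4 of 4 libraries, with p = 0.125 by an exact two-sided sign-flip permutation test. That is the smallest p that this test allows with 4 libraries, so none of the sign-flip tests below can pass 0.05. The difference was largest for TEC genes, lincRNAs and processed transcripts among types with at least 39 inner genes, and smallest for protein-coding genes. Of antisense genes, 61.5 ± 1.97% of those nested and 23.0 ± 3.02% of those without an overlap had a count. Among lincRNAs the shares were 52.7 ± 2.12% and 6.39 ± 1.32%. For miRNA genes they were 30.0 ± 2.26% and 3.23 ± 0.835%, and for protein-coding genes 55.0 ± 2.28% and 39.2 ± 3.44%.

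**Figure D2:**
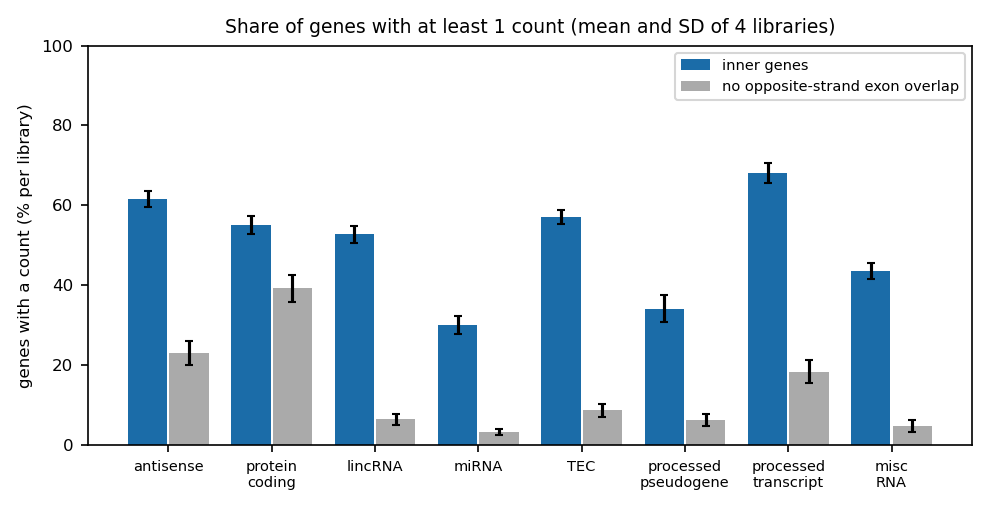
Percent of genes with at least 1 count per library, by annotated type, for inner genes and for genes without an opposite-strand exon overlap, with bars at the mean and error bars at the SD of 4 libraries. Every type shown had a higher share among inner genes, such as 55.0% against 39.2% for protein-coding genes and 52.7% against 6.39% for lincRNAs.

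The 2 genes of a pair were compared within each library by count density, the count plus 0.5 per kb of exon, as log2 of inner over outer. A pair was measured where both counts together averaged at least 20 over the libraries, which 782 pairs did, while 361 had fewer counts and 429 had none in any library. The inner gene was much the denser of the 2 in most measured pairs. Medians over the pairs were 5.81, 5.35, 5.46 and 5.66 in replicates 1 to 4, a mean log2 ratio of 5.57 ± 0.21 (SD, n = 4), or 47.5-fold (exact sign-flip permutation p = 0.125). Without division by exon length it was 2.85. The minimum can be reached through 1 gene of a pair. Over every pair with a count the median was 4.04. Such a pair can also enter through 1 gene, so this does not remove that limit. The inner gene was denser in all 4 libraries in 569 pairs, where 62.7% of all 2435 measured overlapping pairs had the shorter gene denser. The outer gene was denser in all 4 in 182 pairs, where 32.3% of overlapping pairs had the longer gene denser. The other 31 pairs had mixed signs. As shares of the 782, these were 72.8% and 23.3%. The background includes these 782 pairs, and the 1653 measured overlapping pairs that are not nested gave 57.9% and 36.5%. Gene types are mixed in different proportions in the 2 sets. For a gene of another type in a coding gene, the first share was 82.99% nested and 84.74% not nested. It was also lower in nested pairs for coding genes in genes of another type. For 2 coding genes and for 2 genes of other types it was higher.

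The log2 ratio was at least 4 in size in 586 measured pairs (74.9%) and under 1 in size in 40, where 61.5% and 8.5% of all overlapping pairs were so. It ran from -10.16 to 13.57, while its SD between libraries had a median over pairs of 0.63, so most pairs differed between their 2 genes far more than between libraries. In 72 measured pairs the inner gene had no count in any library, and in 11 the outer gene had none. Each of the 751 pairs with 1 sign in all libraries had an adjusted p of 0.13 (exact sign-flip permutation, Benjamini-Hochberg over all 782).

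The direction differed by gene type. In 582 measured pairs with an inner gene of another type in a coding gene, the median log2 ratio was 6.25 ± 0.26, higher on the inner gene in 4 of 4 libraries. The inner gene was denser in all 4 libraries in 483 and the outer gene in 78, where 83.9% and 12.8% of all overlapping pairs of these types were so. Median densities were 98.5 ± 7.48 CPM per kb for the inner and 1.85 ± 0.298 for the outer genes. Where the coding gene was the inner one, in 37 pairs, the direction was turned, with a median of -5.86 ± 0.19. Only Gapdhs and Tuba3a were then denser on the inner gene in all 4 libraries, and the outer gene was denser in 34 pairs, with background shares of 8.5% and 88%. Their median densities were 0.704 ± 0.173 CPM per kb for the inner coding genes and 51.8 ± 1.83 for the outer genes. By type alone, the gene of another type was denser than the coding gene in all 4 libraries in 517 of 619 nested pairs and less dense in 80, with a background of 84.5% of 1352 pairs.

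Pairs of 2 coding genes were more even, with a median of 1.70 ± 0.10 over 82 pairs. The inner gene was denser in all 4 libraries in 47 and the outer in 30, against background shares of 50.9% and 41.6%. Among coding outer genes, the median for inner genes of other types exceeded that for coding inner genes by 4.55 ± 0.18, in 4 of 4 libraries (exact sign-flip permutation p = 0.125). In 71 pairs without a coding gene the median was -2.98 ± 0.43, with the inner gene denser in 27 and the outer in 40, against background shares of 37.4% and 57.4%. Of the inner types, antisense genes were denser than their outer gene in all 4 libraries in 288 of 328 measured pairs, where 87.5% of antisense genes shorter than an overlapping partner were so. For lincRNAs the count was 59 of 74 (background 79.8%), for TEC genes 55 of 78 (74.1%) and for miRNA genes 30 of 48 (60%). Each background includes the nested pairs themselves, and for miRNA genes these make up 48 of its 50 pairs. How near a count lies to its background was therefore partly fixed in advance, and nothing is read from it. Among snoRNA genes, 3 of 9 were denser and 5 were less dense (33.3% and 55.6%, the same 9 pairs).

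**Figure D3:**
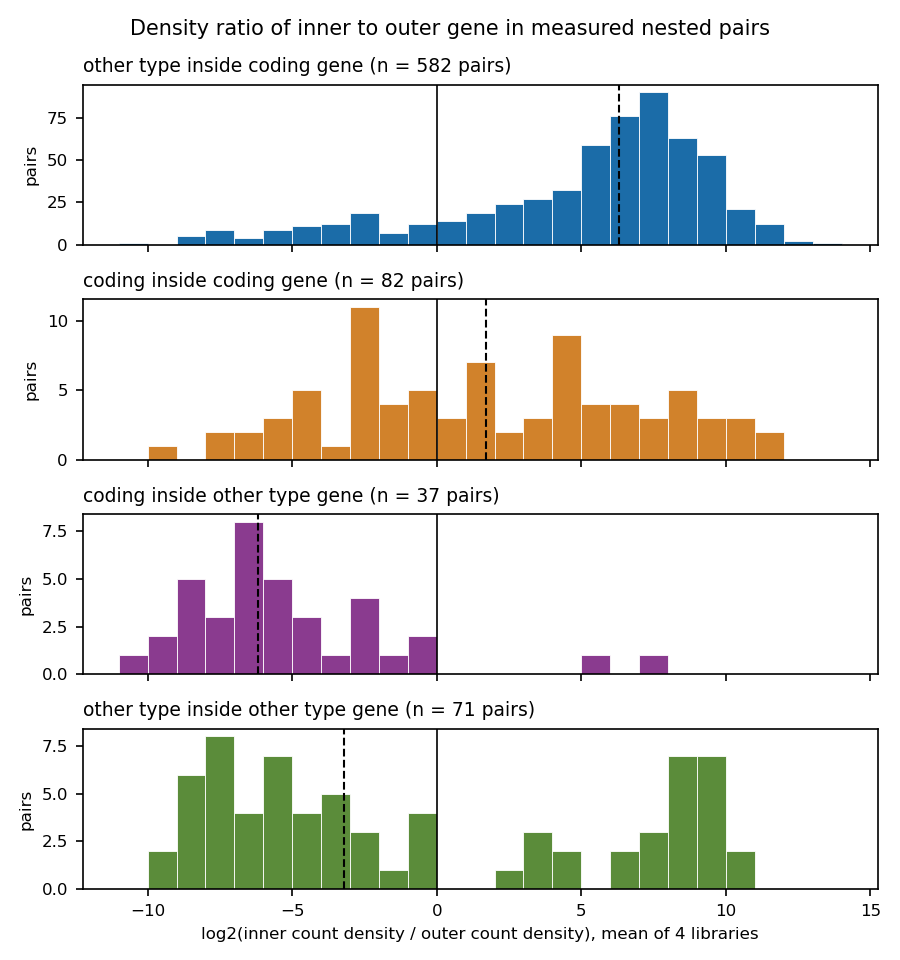
Number of measured pairs by log2 ratio of inner to outer count density, mean of 4 libraries, in 4 classes of gene type, with a solid line at 0 and a dashed line at the class median. Genes of another type in coding genes lie mostly to the right of 0, coding genes in genes of another type lie to the left apart from 2 pairs, and pairs of coding genes spread over both sides.

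Nested pairs were set against 1653 measured opposite-strand pairs that overlap without either lying inside the other. Shorter over longer gene, those had a median of 1.98 ± 0.03, and the nested median exceeded it by 3.60 ± 0.19 in 4 of 4 libraries (exact sign-flip permutation p = 0.125), or by 1.91 without division by length. The classes are mixed in different proportions in the 2 sets, and within each class the difference was smaller or negative. For a gene of another type against a longer coding gene the nested median was higher by 0.93 ± 0.09 (4 of 4 libraries), but the difference was -0.093 when counts were not divided by exon length. For 2 coding genes it was higher by 1.21 ± 0.12 (4 of 4 libraries), a comparison within classes added after values were seen. For a coding gene against a longer gene of another type the difference was -0.040 ± 0.28, within the spread between libraries (exact sign-flip permutation p = 0.875). For 2 genes of other types it was -0.48 ± 0.43, negative in 3 of 4 libraries (exact sign-flip permutation p = 0.25).

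**Figure D4:**
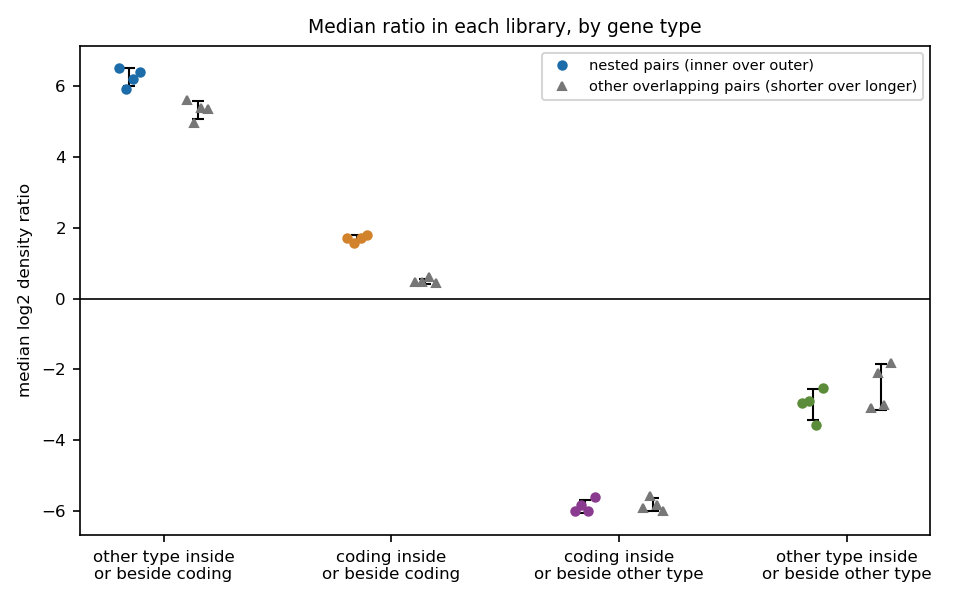
Median log2 density ratio in each of 4 libraries for nested pairs (circles, inner over outer) and for other overlapping pairs (triangles, shorter over longer), by gene type, with error bars at the mean ± SD. The 4 libraries of a class lie close together, near 6 for genes of another type in coding genes and near -6 for coding genes in genes of another type.

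The ratio also differed by how the overlap lay. Inner genes with at least 80% of their exon bases covered had a median of 7.20 ± 0.27 (268 pairs), those with 50 to 80% had 6.05 ± 0.14 (76 pairs) and those with under 50% had 4.79 ± 0.20 (438 pairs). Between the first and the last the difference was 2.40 ± 0.12, positive in 4 of 4 libraries (exact sign-flip permutation p = 0.125), and it was 0.94 without division by length. In 673 pairs the overlap could be placed against the coding sequence of the outer gene. Overlaps after the coding sequence had a median of 7.68 ± 0.32 (126 pairs, 108 denser on the inner gene and 16 on the outer, where 60.6% and 33.5% of all overlapping pairs with such an overlap were so). Those before it had 2.84 ± 0.32 (73 pairs, 45 and 22, with background shares of 61% and 32.5%). Overlaps with coding bases gave 6.46 ± 0.31 (321 pairs), and those between coding exons 4.83 ± 0.17 (153 pairs). After minus before was 4.84 ± 0.29, positive in every library (exact sign-flip permutation p = 0.125), a comparison added after values were seen. The covered share moved with it, at a median of 100% after and 33.2% before the coding sequence, and its part in the difference was not tested. Gene types are mixed in different proportions in nested and other overlapping pairs. Pairs of 2 coding genes were 82 of 782 measured nested pairs and 871 of 1653 others. Neither the contrasts by covered share and by place nor their background shares were split by type.

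Near the overlap limit, 10 inner genes had an overlap of 50 to 54 bases, of which 3 were measured, and 17 genes with 45 to 49 bases lay just outside, of which 8 had enough counts. Just inside, Gm26538 averaged 506 counts and its outer gene Kdm3b 78.8, while Gm44408 averaged 0 against 23.5 for Ryr1 and Gm16230 averaged 2 against 28 for Nemp1. Just outside, Gm17111 averaged 952 counts and Dync1h1 110, while Snord35b averaged 0 against 25718 for Gm45552.

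Genes that T cells are known for were among the sparse members on the strand assigned to them, a direction that rests on the strand setting. The same held for coding genes in general. In 84.5% of all 1352 measured overlapping pairs with a gene of another type, the coding gene was less dense in all 4 libraries. Lists of T cell genes were chosen with earlier results of these data known, and within them the list gene was the less dense of its pair in all 24 measured pairs, each in all 4 libraries. Of 48 genes of the T cell receptor and its signalling, 11 nested pairs were measured, with log2 ratios of list gene over partner from -10.18 to -4.11 and a median of -6.86. Of 35 factors of naive and resting cells, 7 pairs had a median of -9.13. Among 40 helper lineage genes, 8 lay in nested pairs, 4 of these were measured, and their median was -8.0. Cish and Irf1 of 34 cytokine receptor and JAK-STAT genes had a median of -8.67. Of 38 markers of other cells, the 2 measured pairs, both with Alas2, the first enzyme of heme synthesis in red cells, went the other way, although the pair with Mir3620, which had 0 counts, turned when 2 counts were added to each gene. Over all lists the list gene was less dense in 24 of 26 pairs, in which Itpr1 and Alas2 are each counted in 2. Some of the 26 join 2 coding genes, such as the pairs of Dgkz, Irf1 and Lcp2. The coding gene was less dense in 517 of 619 nested pairs of a coding gene and a gene of another type. That set leaves out pairs of 2 coding genes, so the 2 shares are not of like sets.

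Cd3e encodes the epsilon chain of the CD3 complex, which carries the T cell receptor signal into the cell. It had 51, 97, 43 and 34 counts in replicates 1 to 4, while Gm48719, an antisense gene of 361 exon bases at chr9:44999429-45002985 within it, had 6532, 6058, 5290 and 3960. The 2 genes did not overlap in any library, and the log2 ratio of Gm48719 over Cd3e was 10.18 ± 0.48 (SD, n = 4). Only 135 of the inner exon bases lie in exons of Cd3e, or 37.4%.

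Ptpn6 had 88, 110, 88 and 39 counts against 3360, 3106, 2933 and 2314 for Gm20531, whose sequence across a Ptpn6 exon is given above, a log2 ratio of 6.28 ± 0.45. The lowest value of Gm20531 was above the highest of Ptpn6. Fyb, the adaptor ADAP of integrin activation, had 266, 359, 242 and 161 counts. Its antisense gene Gm2245 had 6446, 5742, 6005 and 4094, and at 5.09 ± 0.32 this was one of the smaller ratios on the list.

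Skap1, the partner of ADAP in the same complex, averaged 35.3 counts and its inner lincRNA 2010300F17Rik 3472, a log2 ratio of 8.0 ± 0.21. For Plcg1, a phospholipase that makes second messengers, the mean counts were 97.3 and 1367 for the antisense gene Gm27206. Itpr1 and Itpr3, calcium channels opened by one of those messengers, averaged 25.8 and 60.3 counts. Itpr1 holds 2 inner genes, Gm44101 with a mean of 280.8 counts and Gm44040 with 159, which share their outer gene and are not independent. Itpr3os averaged 626.5 counts in Itpr3. Dgkz, a kinase that ends diacylglycerol signals, averaged 79.3 counts against 710.5 for Gm9821, which is annotated as coding. Lcp2, the adaptor SLP-76, is itself an inner gene, in 4930469K13Rik, and had 97, 96, 71 and 43 counts against 220, 222, 236 and 136. That pair had the smallest ratio on the list, at 4.11 ± 0.29 on the log2 scale toward the partner, and their overlap covers 1.97% of the exon bases of Lcp2.

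**Figure D5:**
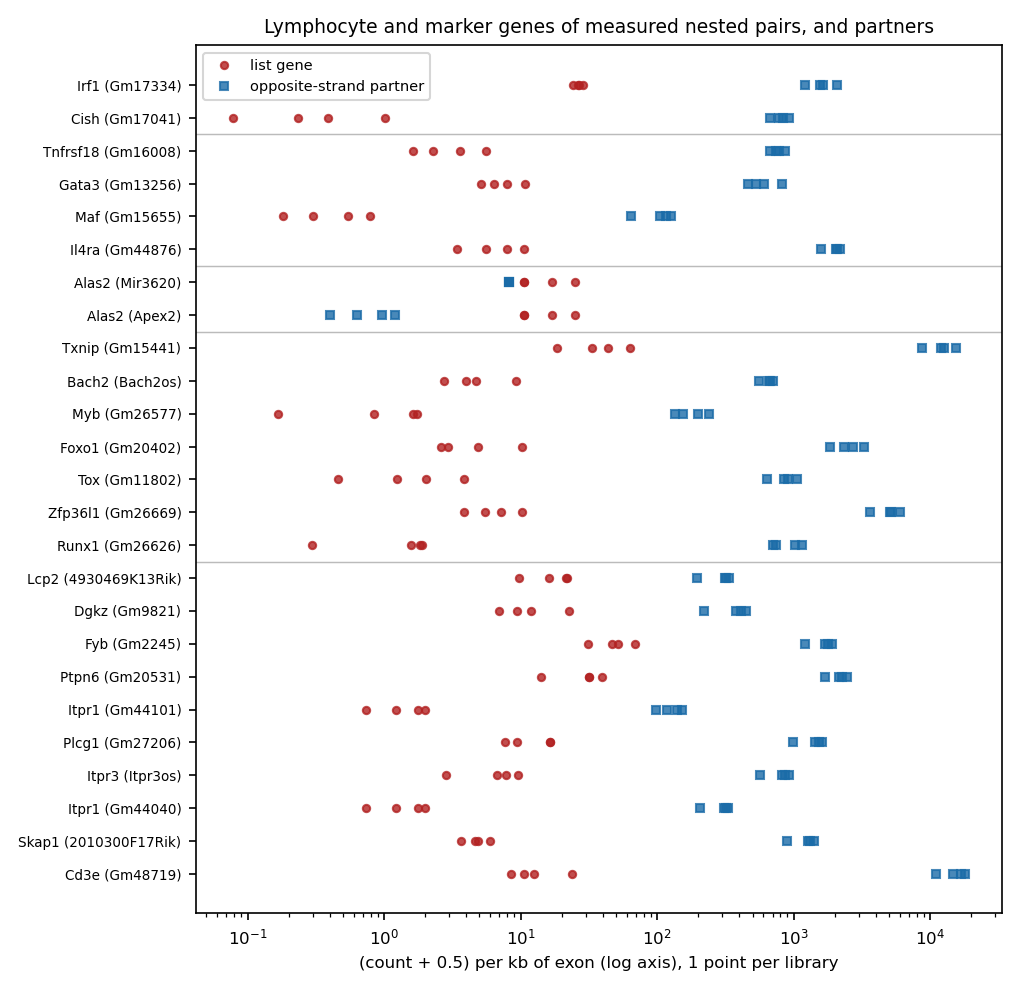
Count plus 0.5 per kb of exon, on a log axis, with 1 point per library, for the list gene (red circles) and its opposite-strand partner (blue squares, named in brackets) of 25 measured nested pairs. Red points lie left of blue in the T cell lists, with no overlap between the libraries of the 2 genes, and right of blue for Alas2, where the pair with Mir3620, at 0 counts, turns with 2 counts added.

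The factors of naive and resting T cells included the most abundant partner of any list gene. Txnip, a thioredoxin-binding protein that limits glucose uptake, had 104, 197, 135 and 57 counts, and Gm15441, the antisense gene around it, had 20168, 20979, 25832 and 14600. Here the coding gene is the inner one, and the log2 ratio of Txnip over Gm15441 was -8.37 ± 0.53. Zfp36l1, which binds AU-rich mRNAs, had 21, 30, 16 and 11 counts against 10875, 9174, 9367 and 6536 for Gm26669, a ratio of 9.60 ± 0.44 toward the inner gene. Foxo1, a transcription factor of T cell quiescence, had 25, 88, 22 and 42 counts against 1859, 2232, 1598 and 1263 for Gm20402. In each of these the partner was higher in every library, with no overlap.

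Bach2, a repressor of effector genes, averaged 51 counts against 1411 for Bach2os, and Tox, a factor of T cell development, averaged 14 against 565 for Gm11802. For Runx1, a factor of T cell development, the means were 16 and 645.8 for Gm26626. Myb had 7, 15, 1 and 14 counts against 434, 525, 338 and 293 for Gm26577. At such low counts the ratio varied more between libraries, with SDs of 1.17 for Runx1 and 1.5 for Myb.

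Of the helper lineage genes, Gata3, the transcription factor that directs T-helper 2 differentiation, had 25, 42, 20 and 31 counts. Gm13256 within it, 520 exon bases at chr2:9877256-9878869, had 429, 313, 275 and 239, a log2 ratio of 6.34 ± 0.60. Il4ra, the receptor chain for interleukins 4 and 13, had 47, 63, 33 and 20 counts against 1358, 1389, 1453 and 1066 for Gm44876, at 8.27 ± 0.57. Maf, an activator of the Il4 gene, had 4, 1, 6 and 2 counts against 55, 51, 46 and 28 for Gm15655. Tnfrsf18, the receptor GITR, is an inner gene and had 5, 3, 8 and 2 counts against 1135, 975, 1026 and 882 for Gm16008 around it. Partner and list gene did not overlap in any of these.

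Cish, a feedback inhibitor of cytokine signalling, had 0, 1, 6 and 2 counts against 446, 372, 403 and 321 for Gm17041, which lies wholly in its exons. The log2 ratio was 11.42 ± 1.63, with a large spread beside the low counts of Cish. Irf1, an interferon-induced transcription factor, had 96, 106, 113 and 104 counts against 1889, 1424, 1486 and 1103 for Gm17334, at 5.92 ± 0.37. Alas2 had 40, 25, 60 and 25 counts against 8, 10, 5 and 3 for Apex2 around it, a log2 ratio of 4.33 ± 0.93. Mir3620 inside Alas2 had 0 counts in every library.

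The pair with most counts was CT010467.1, a ribosomal RNA locus on chromosome 17, and Gm42418 within it. CT010467.1 had 147001, 395152, 66792 and 183413 counts and Gm42418 had 262, 1351, 154 and 360, so the outer gene was denser by 8.34 ± 0.41 on the log2 scale. Both genes were highest in replicate 2 and lowest in replicate 3.

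Pairs of coding genes with most counts split both ways. Avpr2, the vasopressin receptor of the kidney collecting duct, had 7977, 7936, 6627 and 4826 counts against 105, 140, 78 and 47 for Arhgap4, a GTPase-activating protein of blood cells, at 7.77 ± 0.35. For Gm20721 within Gnas, the stimulatory G protein alpha subunit, the means were 14995 and 68.3, at 10.80 ± 0.64. In both the inner gene was higher in every library.

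The outer gene was the higher one in 2 further coding pairs. Srsf2, a splicing factor of the SR family, had 82, 114, 97 and 64 counts, and Mettl23, a methyltransferase gene around it, had 6385, 5572, 6156 and 3551, a log2 ratio of -6.04 ± 0.29. Rpl35, a protein of the large ribosomal subunit, had 58, 71, 70 and 61 counts against 6402, 5422, 4872 and 4431 for Wdr38, at -5.12 ± 0.30. In these the overlaps covered 15.6% and 66.2% of the inner exons. Gm10337 in Map3k12, with mean counts of 71.5 and 5290, had a log2 ratio of -0.38 ± 0.44 because its 165 exon bases raise its density, so the 2 densities did not differ beyond their spread.

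Noncoding loci were among those with most counts too. Malat1, an abundant nuclear long noncoding RNA, had 281, 529, 479 and 213 counts, while Gm37376, a TEC gene of 453 bases within its exon, had 8729, 10359, 12449 and 7376. Per exon length the inner gene was denser by 8.71 ± 0.36 on the log2 scale. Gm43127 in Als2cl had a mean of 12601 counts against 629.8, at 5.41 ± 0.27.

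At the high end of the ratios were pairs whose outer gene had almost no counts. Gm16042, a processed pseudogene within Gm45062, had 1622, 1358, 1462 and 871 counts and Gm45062 had 0 in all 4. With Gm45062 set at the chosen limit of 3 counts over the group, the density of Gm16042 was 8297-fold higher. Gm20650 had 401, 400, 385 and 253 counts and its outer gene Tmem219 had 0, 1, 0 and 0. Gm13554 had 248, 206, 261 and 182 against 1, 0, 0 and 0 for Nacc2. The inner exons of Gm16042, Gm20650 and Gm13554 are wholly covered by the outer gene's exons.

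At the low end the inner gene had few counts or none. Dnah14, an axonemal dynein heavy chain of motile cilia, had 2692, 2387, 2872 and 1924 counts, and Gm37664 within it had 0 in all 4. With Gm37664 set at the chosen limit of 3 counts over the group, Dnah14 was 773-fold denser. Elf3, a transcription factor of epithelia, had 0 in every library against 750, 720, 543 and 483 for Gm26642. Hamp2, a hepcidin gene of the liver, had 0 against 480, 395, 369 and 248 for the lincRNA Gm44662. Thbs3, a thrombospondin of the extracellular matrix, had 0 against 455, 317, 368 and 211 for Mtx1, a mitochondrial import gene. At the same chosen limit of 3 counts, the partners of Elf3, Hamp2 and Thbs3 were 663-fold, 704-fold and 606-fold denser.

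Some pairs had counts on both strands, named here after their values were seen. Nr2c2ap had 1174, 999, 919 and 616 counts and Rfxank, a subunit of the RFX factor that drives MHC class II genes, had 1196, 1107, 1125 and 804, a log2 ratio of 1.07 ± 0.16. Asf1a, a histone chaperone, averaged 283 counts and Mcm9, a helicase of DNA repair, 392, at 0.85 ± 0.17. Nrm, a nuclear envelope protein, averaged 392 counts and Ppp1r18os 394.5, at -0.90 ± 0.07. Gapdhs, the sperm form of a glycolytic enzyme, was also named after its values were seen. Its pair had almost all counts on the coding inner gene, with 206, 268, 218 and 147 against 0, 3, 0 and 3 for Tmem147os.

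Small RNA genes are short, and by the default of the counter a fragment is counted at an overlap of 1 base, so their counts may hold fragments of longer transcripts and say nothing of the mature small RNA. Of 48 measured inner miRNA genes, 18 had a RefSeq sequence (GRCm38.p6). Shown are the mature miRNAs of 2 pairs in which both genes are miRNA genes, named after their values were seen, with the seed, bases 2 to 8, in capitals. Mir142 and Mir24-1 are on the plus strand and their outer genes Mir142b and Mir3074-1 on the minus strand.
miR-142a-5p, chr11:87756867-87756887: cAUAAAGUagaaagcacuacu
miR-142a-3p, chr11:87756903-87756925: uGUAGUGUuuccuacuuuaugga
miR-142b, chr11:87756906-87756925: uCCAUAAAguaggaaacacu
miR-24-1-5p, chr13:63301213-63301235: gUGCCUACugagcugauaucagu
miR-24-3p, chr13:63301251-63301272: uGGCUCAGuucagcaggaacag
miR-3074-5p, chr13:63301249-63301270: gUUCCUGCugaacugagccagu
The hairpins of Mir142 and Mir24-1 are complementary over their whole length to stretches of the hairpins opposite, yet the seeds of the 2 strands differ. miR-142 is known as a miRNA of blood cells. The gene Mir142 had 2, 3, 1 and 2 counts and Mir142b, on the other strand, had 529, 360, 295 and 246. Mir142b was 99.5-fold denser over the summed counts (exact 95% interval 50.3 to 231), with no overlap between the libraries. Mir24-1 had 0, 2, 0 and 0 counts against 16, 51, 14 and 31 for Mir3074-1, 44.8-fold by the same measure (12.1 to 374).

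Tlcd1 holds the snoRNA genes Snord42a and Snord4a in its exons. Tlcd1 had 22010, 19258, 20336 and 13869 counts, Snord42a had 3, 0, 0 and 0, and Snord4a had 0, 0, 0 and 2. Mir3082 in Jmjd8 averaged 122.5 counts against 2810, a log2 density ratio of 0.87 ± 0.36 that turned to -4.56 when counts were not divided by length, the 64 bases of Mir3082 making the difference. A set of 3 genes of the miRNA type, 141 bases each, lie in histone H2A genes and were named after their values were seen. Gm44364 averaged 1114 counts in H2afj, which had 29, Gm44335 averaged 158.5 in H2afx, which had 1, and Gm44492 averaged 70.5 in Hist2h2ac, which had 5.5.

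The outer genes with most inner genes gave no value. Nlrp12 holds 6 miRNA genes of the Mir290 cluster, Rtl1 holds 6, among them Mir127 and Mir433, and Six3os1 holds 6 genes, and all of these genes had 0 counts in every library. The limit chosen for a count of 0 corresponds to 1.28 to 2.07 CPM, and higher levels are not excluded, so low levels were not detectable at this depth.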

How the data were processed

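RNA of 4 samples was measured in 1 group, and the deposited tables hold raw fragment counts. Per the file headers, STAR alignments to mm10 were counted by the authors on exons from GENCODE mouse release 13 using featureCounts 1.4.6-p4, with strand setting 1 and both ends aligned. The deposited count tables also give exon positions and exon length. Trimming is not given in the sources used here. Symbols and types came from GENCODE mouse release 21 for 50376 of 50600 genes. Overlaps were found with bedtools 2.31.1 and values computed in Python 3.11.15 with pandas 2.3.3 and scipy 1.17.1. edgeR 4.0.16 and DESeq2 1.42.0 gave scaling factors for alternatives only. The median and sign-flip code was tested on simulated data. Intervals of folds are exact (Clopper-Pearson) on summed counts, 95%. A chi-square comparison of counts gave 6.29 to 24.8 per degree of freedom between libraries, so none was a copy of another.

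The members and lists were chosen with earlier results of these data known. The pairs named are the 8 with most counts, the 6 highest and 6 lowest ratios among pairs with a mean of at least 100, every measured pair with a list gene, the 6 coding pairs and 4 small RNA pairs with most counts, and the 3 outer genes with most inner genes. Not all are described, some items are not reported here, and others are marked as chosen after their values were seen. Genes that share exon bases with a same-strand gene (202 pairs, 112 measured) were kept, and their counts are uncertain. Alternatives changed the minimum, the counts added, the division by length, the overlap, same-strand neighbours, inner genes per outer gene and single libraries.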

Additional observations from a re-analysis of the deposited data

Results flagged for a closer look

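In 4 of 64 values tested, 1 library lay apart from the other 3 by more than Dixon's 95% limit, which chance alone passes in about 1 of 20. The log2 ratio of Snord4a over Tlcd1 was -6.30 in replicate 4, where Snord4a had its 2 counts, and -9.29 to -9.09 in the others. That of 1810008B01Rik over Gm20388 was 11.46 in replicate 4, against 11.97 to 12.03, and Gm20388 had 0 counts in every library, so the value follows the counts of 1810008B01Rik and the counts added. In replicate 2, Gm2245 over Fyb was 4.62, against 5.22 to 5.28, and Gm48719 over Cd3e was 9.46, against 10.34 to 10.49. Fyb and Cd3e had their highest counts in that library.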

How the results depend on the processing

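Of 83 alternative settings of 7 summary results, 80 kept the direction of a ratio or difference, a count within 1.5 times or a share within 1 SD. Ratios were judged by direction alone, and division by length changed their size. The number of pairs denser on the inner gene was 355 with an overlap of at least 200 bases, which leaves fewer pairs. The share of counts in inner genes was 18.5% without its 3 most counted genes and 22.6% of a total without CT010467.1. For nested against other pairs of a gene of another type and a coding gene, the difference was -0.093 without division by length. Of 306 settings of 51 named pairs, 304 kept their direction. Mir3082 over Jmjd8 was -4.56 without division by length, and Mir3620 over Alas2 was 1.09 with 2 counts added, so the direction of that pair rests on the counts added.

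Over the alternatives the median log2 ratio of all pairs ran from 2.85, without division by length, to 6.03, with a minimum of 100. The nested excess over other pairs was 1.91 without division by length. Leaving out each library gave 5.49 to 5.64 for all pairs, 570 to 573 pairs denser on the inner gene, 4.48 to 4.62 by type, 2.37 to 2.45 by covered share, 3.53 to 3.66 against other pairs, 19.9% to 21% of counts and 34.8 to 35.3 points of detection. Added after the data were seen were 200 bases on each exon length (5.35 for all pairs), inner genes of at least 200 bases (5.49) and the total without CT010467.1. No pairing of samples between groups was possible because there is 1 group, while the 2 genes of a pair were compared within each library. Depth limits pairs under 20 counts, and 429 pairs had none.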
